A study of Mus musculus with 18 samples.

Results

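RNA of Wt1-GFP bright cells of the mouse embryonic heart was compared between embryonic day 16.5 (E16.5) and embryonic day 14.5 (E14.5), the last 2 days of a daily course that began at E11.5. The 6 arrays are those titled 16.5 (3 arrays) and 14.5 (3 arrays), out of 18 in all, and every gene above background was tested. Both groups came from Wt1GFP knock-in embryos, in which green fluorescent protein (GFP) is made from the Wt1 locus. Their ventricles were dissociated with enzymes, the cells brightest for GFP were sorted, and the sorted cells were put into lysis buffer. The labels name no treatment, and the groups differ by stage. No array of wild-type embryos, unsorted cells or dimmer cells belongs to the course. Wt1 itself is not analysed here. Litters and pools are not recorded for the arrays, so p-values measure only the spread between these arrays, which may be technical. In sorted bulk RNA, fewer cells of a type and less RNA per cell cannot be told apart.

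The epicardium is the mesothelial sheet that covers the heart. It carries keratins and uroplakins like other mesothelia, and in mid gestation some of its cells undergo an epithelial to mesenchymal transition and move into the ventricle wall, where they give rise to fibroblasts and to the mural cells of coronary vessels. The coronary endothelium, the cardiac matrix and the muscle of the compact wall mature around the same cells during these days.

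Each value is the log2 of a deposited probe intensity on an Illumina bead array. Intensities ran between 83.8 and 17358 with a median of 104, and the 18 arrays share almost the same distribution. A gene was tested if 3 or more of the 18 arrays had a probe of it over 109 intensity units (6.77 on the log2 scale), taken as the floor of background, which left 10813 genes; for such arrays, their number limits the precision. The background is still in the values, so differences of dim genes are compressed. A gene is called where limma's moderated test over all genes gave an adjusted p under 0.05. Arrays of a stage correlated at 0.976 to 0.991 at E16.5 and at 0.994 to 0.995 at E14.5. Replicate 1 of E16.5 stood apart in heart muscle genes: the mean level of 45 such genes was 9.88, 8.61 and 8.42 in the E16.5 arrays, in the order of replicates 1, 2 and 3 that is used throughout, against 9.72, 9.63 and 9.83 in the E14.5 arrays. The part of that array in each result was measured by leaving it out. For the genes named by rule (given with the processing) and described below, a call that changed without it is noted.

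Between E16.5 and E14.5, 1919 genes were called (17.7% of those tested), of which 1069 were higher at E16.5 (9.89%) and 850 lower (7.86%). A scaling by cyclic loess gave 1221 higher and 604 lower. Without replicate 1 of E16.5 there were 1148 higher and 829 lower, and leaving out any 1 of the other 5 arrays gave 630 to 755 higher and 417 to 535 lower. At least a 2-fold difference was reached by 143 of the higher genes (1.32% of all tested) and 43 of the lower ones (0.398%), the second of which was 93 without replicate 1 of E16.5, 25 without replicate 3, and 27 without replicate 2 of E14.5. The median difference over all genes was -0.01 on the log2 scale. In 2000 of the 10813 genes tested all 3 E16.5 arrays lay above all 3 E14.5 arrays, and in 2296 all lay below. Stages that do not overlap were thus common among all genes, and are given below only as a description. Simple epithelial keratins, uroplakins and a part of the other mesothelial genes rose, together with some of the endothelial, basement membrane, interferon-response and complement genes. Mitosis and DNA replication genes were on average slightly lower. Heart muscle genes were lower on 2 of the 3 E16.5 arrays. Markers of endothelium, fibroblasts, muscle and blood were all measured in these sorted cells, and the part of changing cell shares in any gene's difference was not tested.

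**Figure D1:**
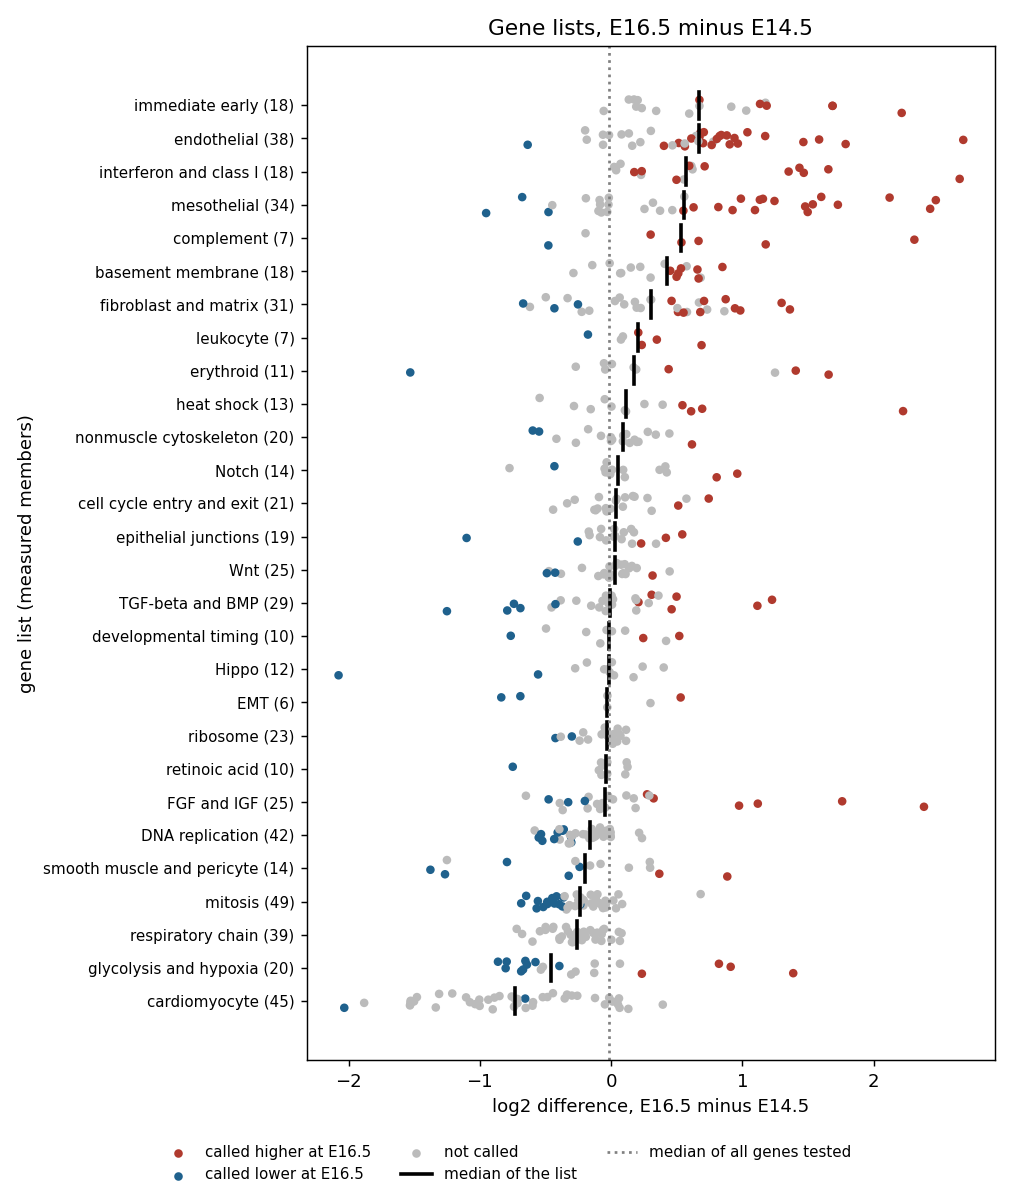
Log2 difference between E16.5 and E14.5 (horizontal axis) for the measured genes of each list (vertical axis, number measured in brackets). Each point is a gene, red where called higher at E16.5, blue where called lower and grey where not called; the black bar is the median of the list and the dotted line the median of all genes. Medians run between -0.73 for heart muscle genes and 0.67 for immediate early genes.

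The plot of gene lists orders the lists by their median difference, and most of the heart muscle points are grey.

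Of 40 mesothelial genes listed, 34 were measured, with a median difference of 0.55. At E16.5, 17 were called higher (50%, against 9.89% of all genes tested) and 3 lower (8.82%, against 7.86%). The mean level of the 34 genes was 8.55, 8.73 and 8.82 at E16.5, against 8.06, 8.07 and 8.02 at E14.5. All 3 later arrays lay above all 3 earlier ones. Muc16, Slpi, Mpzl2, Prg4, Efemp1 and C3 were not above the floor on enough arrays to be tested.

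All 4 keratins of simple epithelia rose. Krt8, the type II keratin that pairs with Krt18 in the filaments of single-layered epithelia, had log2 intensities of 9.52, 10.02 and 9.61 at E16.5, against 7.65, 7.58 and 7.55 at E14.5. The groups did not overlap, and Krt8 differed by 2.12 ± 0.24 (SE; adjusted p = 8.6e-05), a 4.35-fold increase. Krt18, its type I partner, had 8.83, 9.47 and 9.07 at E16.5, against 7.58, 7.56 and 7.43 at E14.5. Its arrays were likewise apart, with a difference of 1.60 ± 0.21 (SE; adjusted p = 0.0002). Krt19, a type I keratin without a tail domain, had 8.51, 9.24 and 9.43 at E16.5, against 7.51, 7.66 and 7.52 at E14.5, and Krt7, a type II keratin of mesothelia and ducts, had 9.15, 9.68 and 9.86 at E16.5, against 8.27, 8.34 and 8.35 at E14.5. In both of these genes replicate 1 was the lowest of the E16.5 arrays and still lay above every E14.5 array. Their differences were 1.50 ± 0.23 (SE; adjusted p = 0.00072) for Krt19 and 1.24 ± 0.23 (SE; adjusted p = 0.002) for Krt7. Krt14, a basal keratin of layered epithelia that is not in the mesothelial list, was among the 15 largest rises of all genes, with 9.59, 10.00 and 10.40 at E16.5, against 7.68, 7.57 and 7.85 at E14.5.

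Both uroplakins rose. Upk1b, a tetraspanin of the urothelial plaque that mesothelia also carry, had 10.12, 10.19 and 10.55 at E16.5, against 8.97, 8.76 and 8.70 at E14.5, with a difference of 1.48 ± 0.20 (SE; adjusted p = 0.00031). Upk3b, a uroplakin commonly used as a mesothelial marker, had 11.42, 11.92 and 11.91 at E16.5, against 10.66, 10.85 and 10.77 at E14.5, with a difference of 0.99 ± 0.19 (SE; adjusted p = 0.0033). No E16.5 array of either gene overlapped an E14.5 array. The 2 other kept probes of Upk3b gave 0.84 and 1.06.

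Among 18 measured mesothelial genes listed as surface and secreted, 11 were higher, 1 was lower and the median was 0.72. This group also includes the intracellular proteins Hpgd, Aldh1a2, Calb2 and Bnc1. Msln, the membrane-anchored glycoprotein mesothelin, had 9.36, 9.55 and 9.87 at E16.5, against 7.93, 7.58 and 8.09 at E14.5, and it differed by 1.73 ± 0.20 (SE; adjusted p = 0.0001). Dmkn, the secreted epithelial protein dermokine, had 8.64, 9.58 and 9.57 at E16.5, against 6.77, 6.78 and 6.81 at E14.5. At E14.5 its probe was above the floor on 2 of 3 arrays and barely so, and at E16.5 it was well above it on all 3, with a difference of 2.47 ± 0.29 (SE; adjusted p = 0.0001). Lgals7, the epithelial galectin-7, had 9.25, 10.05 and 9.90 at E16.5, against 7.26, 7.28 and 7.38 at E14.5, and its difference was 2.43 ± 0.25 (SE; adjusted p = 4.8e-05), while its 2 other kept probes gave 0.33 and 1.45. Hpgd, which breaks down prostaglandins, had 9.12, 9.04 and 9.70 at E16.5, against 7.92, 7.75 and 7.60 at E14.5. Cldn15, a pore-forming claudin of tight junctions, had 9.26, 9.87 and 9.38 at E16.5, against 8.33, 8.28 and 8.42 at E14.5, and Lrrn4, a leucine-rich repeat protein of mesothelia, had 7.78, 7.55 and 7.99 at E16.5, against 7.36, 7.03 and 7.05 at E14.5. In these 3 genes every E16.5 array was again above every E14.5 array, with differences of 1.54 ± 0.20 (SE; adjusted p = 0.00018) for Hpgd, 1.16 ± 0.16 (SE; adjusted p = 0.00039) for Cldn15 and 0.63 ± 0.17 (SE; adjusted p = 0.019) for Lrrn4. The call for Lrrn4 was lost without E16.5 replicate 3, E14.5 replicate 2 or E14.5 replicate 3, with adjusted p-values of 0.07 to 0.093. Aldh1a2, the enzyme with which the epicardium makes retinoic acid, rose by 0.55 ± 0.14 (SE; adjusted p = 0.015). The call for Aldh1a2 was lost without E16.5 replicate 3 or E14.5 replicate 3, with adjusted p-values of 0.055 to 0.071.

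The transcription factors of the epicardium did not rise with these genes. None of the 10 measured factors was called higher by limma (0 at an unadjusted p under 0.05), 2 were called lower, and all 10 differences were below 0, with a median of -0.09. Tbx20, a T-box factor of the heart, had 7.94, 7.67 and 7.25 at E16.5, against 8.58, 8.77 and 8.37 at E14.5, and fell by 0.95 ± 0.21 on the log2 scale (SE; adjusted p = 0.007). Sox9, an SRY-related factor of epicardium-derived mesenchyme, had 10.15, 10.34 and 10.13 at E16.5, against 10.82, 11.07 and 10.75 at E14.5, with a difference of -0.68 ± 0.12 (SE; adjusted p = 0.0022). The third mesothelial gene that fell was Calb2, the calcium-binding protein calretinin, which was above the floor on all 3 E14.5 arrays and on no E16.5 array. Its adjusted p was 0.015, and the decrease was at least 1.27-fold. These 3 genes were singled out after their values were seen. Tcf21, a bHLH factor of epicardial and fibroblast lineages, had 9.60, 9.60 and 9.44 at E16.5, against 9.91, 10.16 and 9.91 at E14.5. Its arrays did not overlap, and the difference of -0.45 did not pass the test (adjusted p = 0.092). Tbx18, a T-box factor that marks the early epicardium, had 7.15, 6.90 and 7.03 at E16.5, against 7.29, 7.04 and 7.03 at E14.5, close to the floor and overlapping between the stages. Bnc1, a zinc finger protein of mesothelia that is counted here with the surface and secreted genes, had 8.27, 8.66 and 9.33 at E16.5, against 8.36, 8.60 and 8.17 at E14.5, and replicate 3 alone was clearly above the E14.5 arrays.

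Over the whole course the mesothelial genes took 2 shapes. Krt8 averaged 9.68 at E11.5, 7.60 at E14.5 and 9.72 at E16.5, and Krt18 averaged 9.41, 7.52 and 9.12 at the same stages. These genes had their minimum at E14.5 and were back near the E11.5 level at the end. Upk3b averaged 12.69 at E11.5, 10.76 at E14.5 and 11.75 at E16.5, so that its level stayed below that of E11.5. Msln averaged 7.06 at E11.5, 7.87 at E14.5 and 9.59 at E16.5. Msln, Dmkn, Lgals7 and Cldn15 ended higher than they began, and Dmkn, at 6.94 on average at E11.5, was close to the floor until E14.5.

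**Figure D2:**
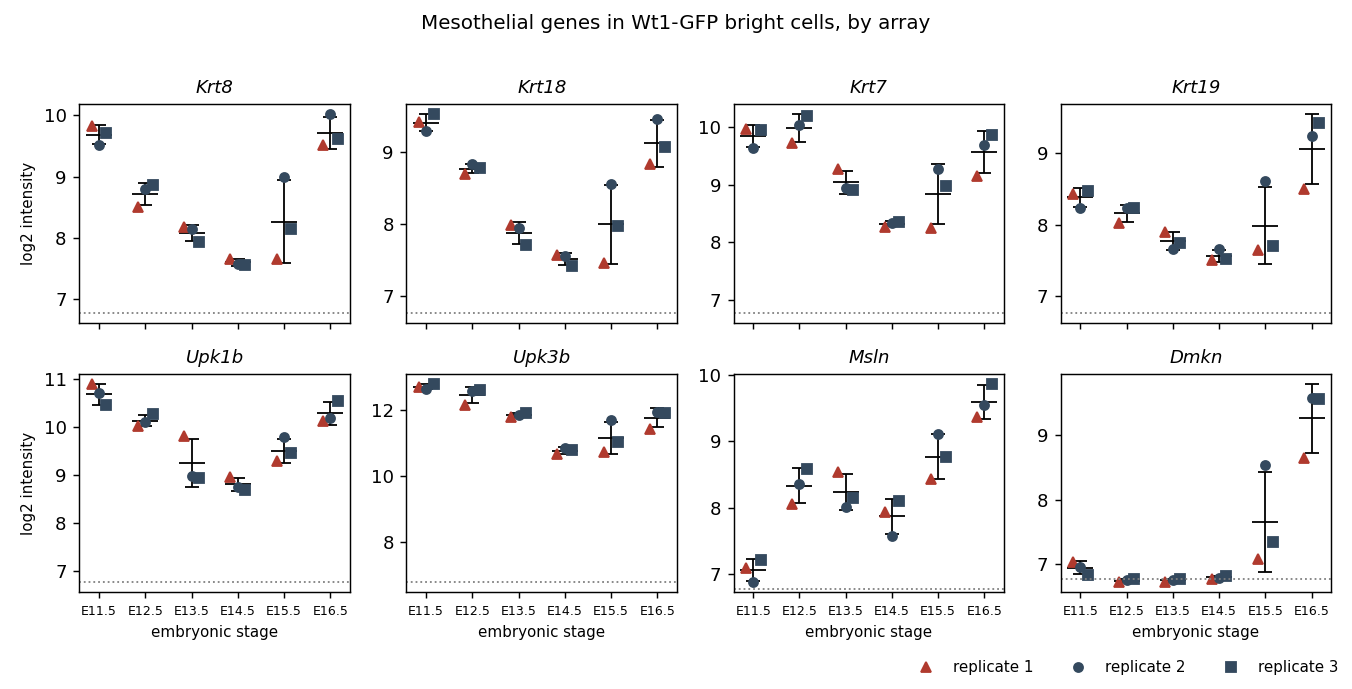
Log2 intensity (vertical axes) of 8 mesothelial genes on each array at each embryonic stage (horizontal axes). Points are arrays, red triangles for replicate 1, blue circles for replicate 2 and blue squares for replicate 3; bars are the mean and SD of 3 arrays and the dotted line is the background floor. Krt8, Krt18, Krt7, Krt19, Upk1b and Upk3b are lowest at E14.5, and Dmkn leaves the floor after E14.5.

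The plot of mesothelial genes by stage also shows that the E15.5 arrays are spread out between the 2 levels, with replicate 2 the highest for Krt8, Krt18 and Dmkn.

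The late window was set against the early window, E13.5 minus E11.5, which has the same length and shares no array with it. Replicate 1 of E13.5 had the lowest weight of all 18 arrays in limma's array weights (0.157), and the E13.5 arrays correlated at 0.961 to 0.991. The test of the difference between windows called 1410 genes (13.0%), 730 of them higher in the late window (6.75%) and 680 lower (6.29%). Without replicate 1 of E13.5, an alternative chosen after seeing the data, 1174 were higher and 1229 lower. In the mesothelial list, 18 of 34 genes were higher in that test and 1 was lower. Krt8 changed by 2.12 in the late window and by -1.60 in the early window, and the windows differed by 3.72 ± 0.34 (SE; adjusted p = 8.6e-06), or by 3.77 without replicate 1 of E13.5. Krt18 changed by 1.60 late and -1.53 early, and Upk1b by 1.48 late and -1.43 early. The sign of the change was thus opposite between the windows for these genes.

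Few heart muscle genes were called lower one by one with all 3 E16.5 arrays, and the list as a whole was not tested. Of 52 listed genes 45 were measured, 2 were called lower and none higher, and 39 of the 45 differences were below 0 with a median of -0.73. At an adjusted p under 0.05, 7.86% of all genes were lower. Replicate 1 of E16.5 carried heart muscle RNA at the E14.5 level, and replicates 2 and 3 did not. Without that array 19 of the 45 were called lower and the median was -1.20; with replicate 1 of E15.5 also left aside, 38 were called lower. None was called by limma when any 1 of the other 5 arrays was left out; with all arrays, 15 were lower and 0 higher at an unadjusted p under 0.05. Replicate 1 of E15.5 had a mean level of 10.11 over these genes, against 8.38 and 8.60 in the other E15.5 arrays.

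Actc1, the cardiac actin of the thin filament, had 13.11, 11.04 and 10.67 at E16.5, against 13.06, 13.04 and 13.22 at E14.5. Replicate 1 lay within the E14.5 arrays and the other 2 lay far below them; the difference was -1.50 ± 0.62 (SE; adjusted p = 0.11), and without replicate 1 it was -2.25 (adjusted p = 0.013). Tnnc1, the cardiac troponin that binds calcium, had 12.94, 11.21 and 10.55 at E16.5, against 12.87, 12.86 and 12.98 at E14.5, with a difference of -1.34 (adjusted p = 0.15) and of -2.02 (adjusted p = 0.025) without replicate 1. Myl3, the ventricular essential light chain, had 13.86, 12.50 and 12.20 at E16.5, against 13.77, 13.73 and 13.86 at E14.5. It shows the same split, with a difference of -0.94 (adjusted p = 0.17), and of -1.44 (adjusted p = 0.025) without replicate 1. Myl2, the ventricular regulatory light chain, had 13.88, 13.00 and 12.68 at E16.5, against 14.08, 13.95 and 14.08 at E14.5, and Myh6, the alpha myosin heavy chain, had 10.50, 8.40 and 7.88 at E16.5, against 9.59, 9.46 and 9.67 at E14.5. In Myl2 replicate 1 was just below the E14.5 arrays and in Myh6 it was above them. Neither passed the test, with adjusted p-values of 0.093 for Myl2 and 0.57 for Myh6, and without replicate 1 the differences were -1.20 (adjusted p = 0.02) for Myl2 and -1.44 (adjusted p = 0.11) for Myh6. Myl7, the atrial regulatory light chain, had 9.28, 9.09 and 9.44 at E16.5, against 9.94, 9.87 and 9.78 at E14.5, and here replicate 1 was not apart from the other E16.5 arrays. Its difference of -0.59 did not pass the test (adjusted p = 0.076). Nppa, the atrial natriuretic peptide, had 9.44, 7.64 and 7.88 at E16.5, against 9.08, 9.25 and 9.31 at E14.5 (difference -0.89, adjusted p = 0.26, and -1.45 (adjusted p = 0.05) without replicate 1).

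The 2 heart muscle genes called lower were Myl4 and Ldb3. Myl4, the atrial and embryonic essential light chain, had 12.48, 10.81 and 10.04 at E16.5, against 13.16, 13.16 and 13.11 at E14.5, all E16.5 arrays below all E14.5 arrays, with a difference of -2.03 ± 0.65 (SE; adjusted p = 0.042). The call for Myl4 was lost without E16.5 replicate 2, E16.5 replicate 3, E14.5 replicate 1, E14.5 replicate 2 or E14.5 replicate 3, with adjusted p-values of 0.099 to 0.19. Ldb3, a Z-disc protein, had 7.38, 6.88 and 6.87 at E16.5, against 7.66, 7.60 and 7.83 at E14.5, with a difference of -0.65 ± 0.19 (SE; adjusted p = 0.029). The call for Ldb3 was lost without E16.5 replicate 2, E16.5 replicate 3, E14.5 replicate 1, E14.5 replicate 2 or E14.5 replicate 3, with adjusted p-values of 0.059 to 0.12. In addition, the 4 other kept probes of Ldb3 gave -0.19, -0.07, -0.06 and -0.17, and with the mean of all kept probes the difference was -0.23 and was not called.

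Among muscle genes outside that list, Tnnt1 and Tnni2 fell and kept their call when any 1 of the 6 arrays was left out, while others did not. Tnnt1, the slow skeletal troponin T that embryonic heart also expresses, fell the furthest of the genes named by rule, with 10.60, 9.61 and 9.20 at E16.5, against 12.48, 12.38 and 12.80 at E14.5 and a difference of -2.75 ± 0.51 (SE; adjusted p = 0.0022). Tnni2, the fast skeletal troponin I, had 7.63, 7.22 and 6.98 at E16.5, against 8.86, 9.08 and 8.86 at E14.5, with a difference of -1.65 ± 0.29 (SE; adjusted p = 0.0017). In both genes replicate 1 was the highest of the E16.5 arrays and lay more than 1 log2 unit below the E14.5 arrays. Myocd, the SRF coactivator of cardiac and smooth muscle genes, had 9.38, 7.65 and 7.62 at E16.5, against 9.75, 9.72 and 10.04 at E14.5, so replicate 1 was close to the E14.5 level and the other 2 were not; the difference was -1.62 ± 0.53 (SE; adjusted p = 0.048). The call for Myocd was lost without E16.5 replicate 2, E16.5 replicate 3, E14.5 replicate 1, E14.5 replicate 2 or E14.5 replicate 3, with adjusted p-values of 0.099 to 0.18. One of the 2 other kept probes of Myocd gave -0.07 and the other -1.44. Ankrd1, the stress-responsive ankyrin repeat protein of muscle, had 10.72, 9.13 and 8.13 at E16.5, against 11.45, 11.32 and 11.44 at E14.5, with a difference of -2.08 ± 0.68 (SE; adjusted p = 0.048). The call for Ankrd1 was lost without E16.5 replicate 2, E16.5 replicate 3, E14.5 replicate 1, E14.5 replicate 2 or E14.5 replicate 3, with adjusted p-values of 0.11 to 0.22. Tmod1, which caps the thin filament, had 8.44, 7.21 and 7.0 at E16.5, against 8.87, 8.82 and 8.94 at E14.5 and a difference of -1.33 ± 0.43 (SE; adjusted p = 0.046). The call for Tmod1 was lost without E16.5 replicate 2, E16.5 replicate 3, E14.5 replicate 1, E14.5 replicate 2 or E14.5 replicate 3, with adjusted p-values of 0.1 to 0.18.

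**Figure D3:**
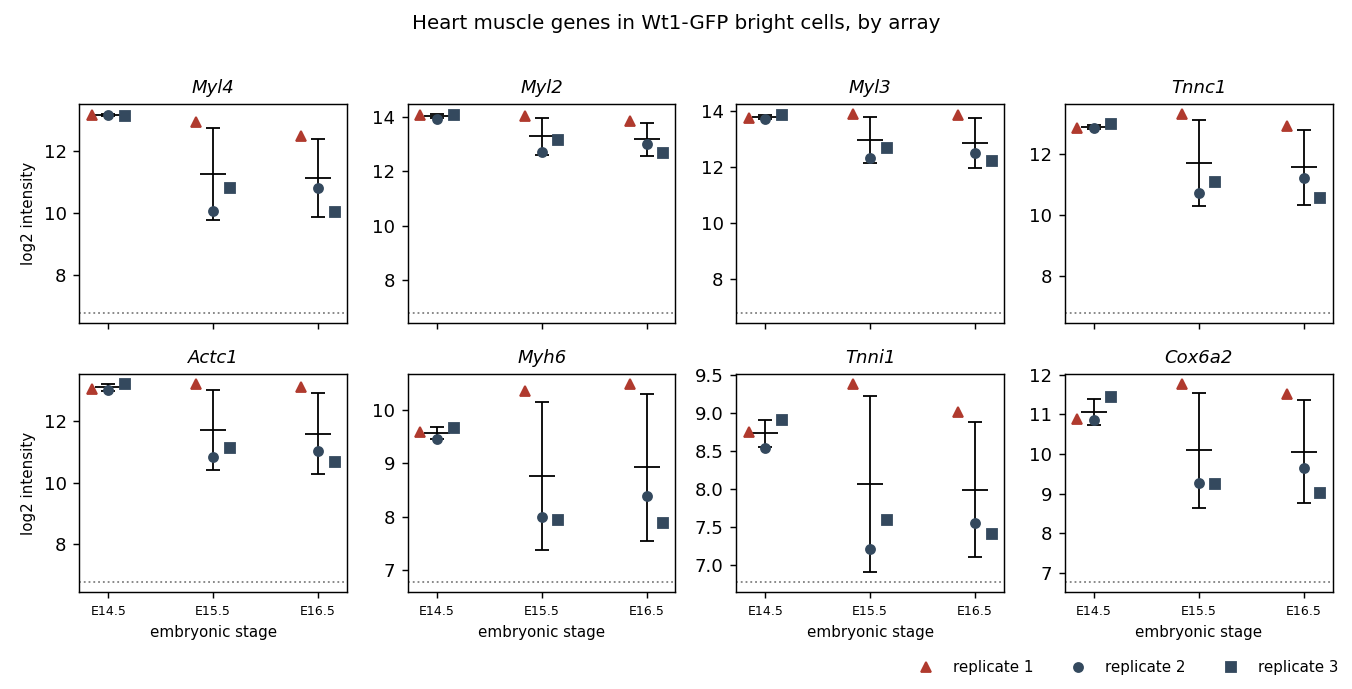
Log2 intensity (vertical axes) of 8 heart muscle genes on each array at E14.5, E15.5 and E16.5 (horizontal axes). Red triangles are replicate 1, blue circles replicate 2 and blue squares replicate 3; bars are the mean and SD of 3 arrays and the dotted line is the background floor. Replicate 1 stays near or above the E14.5 level at both later stages, while replicates 2 and 3 are lower.

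In the plot of heart muscle genes by array, Cox6a2, the muscle isoform of a cytochrome oxidase subunit, follows the sarcomere genes, with 11.50, 9.65 and 9.01 at E16.5, against 10.89, 10.85 and 11.44 at E14.5, and Tnni1, the slow troponin I of the fetal heart, does so with 9.02, 7.56 and 7.40 at E16.5, against 8.75, 8.54 and 8.91 at E14.5. The respiratory chain list moved with that array as well. None of its 39 measured genes was called by limma with all arrays (median -0.26; 0 higher and 6 lower at an unadjusted p under 0.05), 9 were called lower without replicate 1 of E16.5, and 21 without both replicate 1 arrays.

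Mitosis genes were lower by small amounts. Of 64 listed genes 49 were measured, and 44 of the 49 differences were below 0, with a median of -0.23. Of these, 14 were called lower (28.6%, against 7.86% of all genes tested) and none was called higher (against 9.89%). The mean level of the 49 genes was 8.41, 8.25 and 8.12 at E16.5, against 8.49, 8.49 and 8.48 at E14.5. The arrays did not overlap, and replicate 1, the array with the most heart muscle RNA, was the closest to E14.5. Without it 17 were called lower, and without any 1 of the other 5 arrays 6 to 9 were. The list includes Fzr1, which acts in G1, but many of its genes are switched on late in the cell cycle, in G2 and mitosis. Many are known to carry a cell cycle homology region (CHR) and CCAAT boxes near the gene start. The DREAM and MuvB complexes and NF-Y bind there.

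The promoters of 4 mitosis genes called lower are shown for that reason, as the 180 bases between 150 before and 30 after the gene start in RefSeq's table for build GRCm38.p6, 5′ to 3′ on the gene's strand. Capitals mark the letters TTTGAA on either strand (no TTCGAA occurs in these windows) and the box CCAAT on either strand. They are the 4 genes with the largest falls whose CHR motif lies inside this window.
Cdc20 (chr4:118437314-118437493, minus strand): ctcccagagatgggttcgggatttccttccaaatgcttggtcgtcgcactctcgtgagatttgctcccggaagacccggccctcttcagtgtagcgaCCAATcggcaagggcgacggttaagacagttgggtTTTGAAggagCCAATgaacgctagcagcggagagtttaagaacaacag
Kif2c (chr4:117178743-117178922, minus strand): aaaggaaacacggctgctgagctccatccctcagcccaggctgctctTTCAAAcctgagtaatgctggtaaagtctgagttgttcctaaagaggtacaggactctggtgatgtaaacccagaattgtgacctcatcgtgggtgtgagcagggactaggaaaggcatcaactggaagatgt
Cdca8 (chr4:124936888-124937067, minus strand): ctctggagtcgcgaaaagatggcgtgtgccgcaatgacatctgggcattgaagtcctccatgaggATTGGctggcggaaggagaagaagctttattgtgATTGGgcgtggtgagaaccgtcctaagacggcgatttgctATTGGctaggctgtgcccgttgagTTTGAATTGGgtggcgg
Cenpa (chr5:30666736-30666915, plus strand): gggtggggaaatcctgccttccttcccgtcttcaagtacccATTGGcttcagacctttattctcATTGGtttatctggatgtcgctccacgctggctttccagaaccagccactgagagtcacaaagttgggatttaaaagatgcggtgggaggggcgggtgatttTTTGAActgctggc
In Cdca8 the 2 motifs overlap, which was so in 1 promoter of the list. Kif2c has the CHR letters on the opposite strand and no CCAAT in this window. Over the 300 bases that the table holds for each gene, 250 before and 50 after the start, TTTGAA or TTCGAA on either strand occurred in 31 of the 40 measured mitosis genes with a matching entry (77.5%) and in 9 of the 12 matched genes that were called lower (75.0%). Among all genes tested, 13.8% of 8738 matched promoters held it, and 19.4% of all 27025 promoters did. CCAAT on either strand was in 65.0% of the mitosis promoters and in 38.5% of those of all genes tested. A match is a description of the letters and not a bound site.

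Cdc20, the activator of the anaphase-promoting complex, had 9.97, 9.78 and 9.63 at E16.5, against 10.41, 10.40 and 10.63 at E14.5. All 3 E16.5 arrays were below the E14.5 arrays, and the difference was -0.68 ± 0.09 (SE; adjusted p = 0.00022), a 1.61-fold decrease, while the 3 other kept probes of Cdc20 gave -0.54, -0.29 and -0.60. Kif2c, a kinesin that depolymerises microtubules at the centromere, had 8.56, 8.37 and 8.41 at E16.5, against 9.08, 9.09 and 9.11 at E14.5, with a difference of -0.65 ± 0.08 (SE; adjusted p = 0.00011). Cenpa, the histone H3 variant of the centromere, had 11.66, 11.50 and 11.16 at E16.5, against 11.93, 11.97 and 11.97 at E14.5, with a difference of -0.52 ± 0.11 (SE; adjusted p = 0.0065); its other kept probe gave -0.10. Both genes had groups that did not overlap. Fzr1, the activator of the anaphase-promoting complex in G1, had 10.25, 10.24 and 10.06 at E16.5, against 10.56, 10.59 and 10.86 at E14.5 and a difference of -0.49 ± 0.08 (SE; adjusted p = 0.00068), while the 2 other kept probes of Fzr1 gave -0.29 and -0.23. Cdca8 (borealin) and Birc5 (survivin), subunits of the chromosomal passenger complex, differed by -0.57 ± 0.19 (SE; adjusted p = 0.049) and -0.45 ± 0.12 (SE; adjusted p = 0.022). The call for Cdca8 was lost without E16.5 replicate 2, E16.5 replicate 3, E14.5 replicate 1, E14.5 replicate 2 or E14.5 replicate 3, with adjusted p-values of 0.09 to 0.17. The call for Birc5 was lost without E16.5 replicate 3, E14.5 replicate 2 or E14.5 replicate 3, with adjusted p-values of 0.06 to 0.11. With the mean of all kept probes Birc5 was not called by limma either (adjusted p = 0.42), and its other kept probes gave -0.36 and -0.27. The kinases Plk1 and Aurka, which drive entry into mitosis and spindle assembly, differed by -0.56 ± 0.15 (SE; adjusted p = 0.022) and -0.37 ± 0.10 (SE; adjusted p = 0.024). The call for Plk1 was lost without E16.5 replicate 2, E16.5 replicate 3, E14.5 replicate 1, E14.5 replicate 2 or E14.5 replicate 3, with adjusted p-values of 0.056 to 0.098. The call for Aurka was lost without E16.5 replicate 2, E16.5 replicate 3, E14.5 replicate 2 or E14.5 replicate 3, with adjusted p-values of 0.059 to 0.1. Under cyclic loess neither Cdca8 nor Aurka was called. Cdk1, Top2a, Aurkb and Bub1b did not pass the test, with differences of -0.34 for Cdk1, -0.27 for Top2a, -0.24 for Aurkb and -0.15 for Bub1b. Without replicate 1 of E16.5 Aurkb was called lower by limma, at -0.41 (adjusted p = 0.04).

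**Figure D4:**
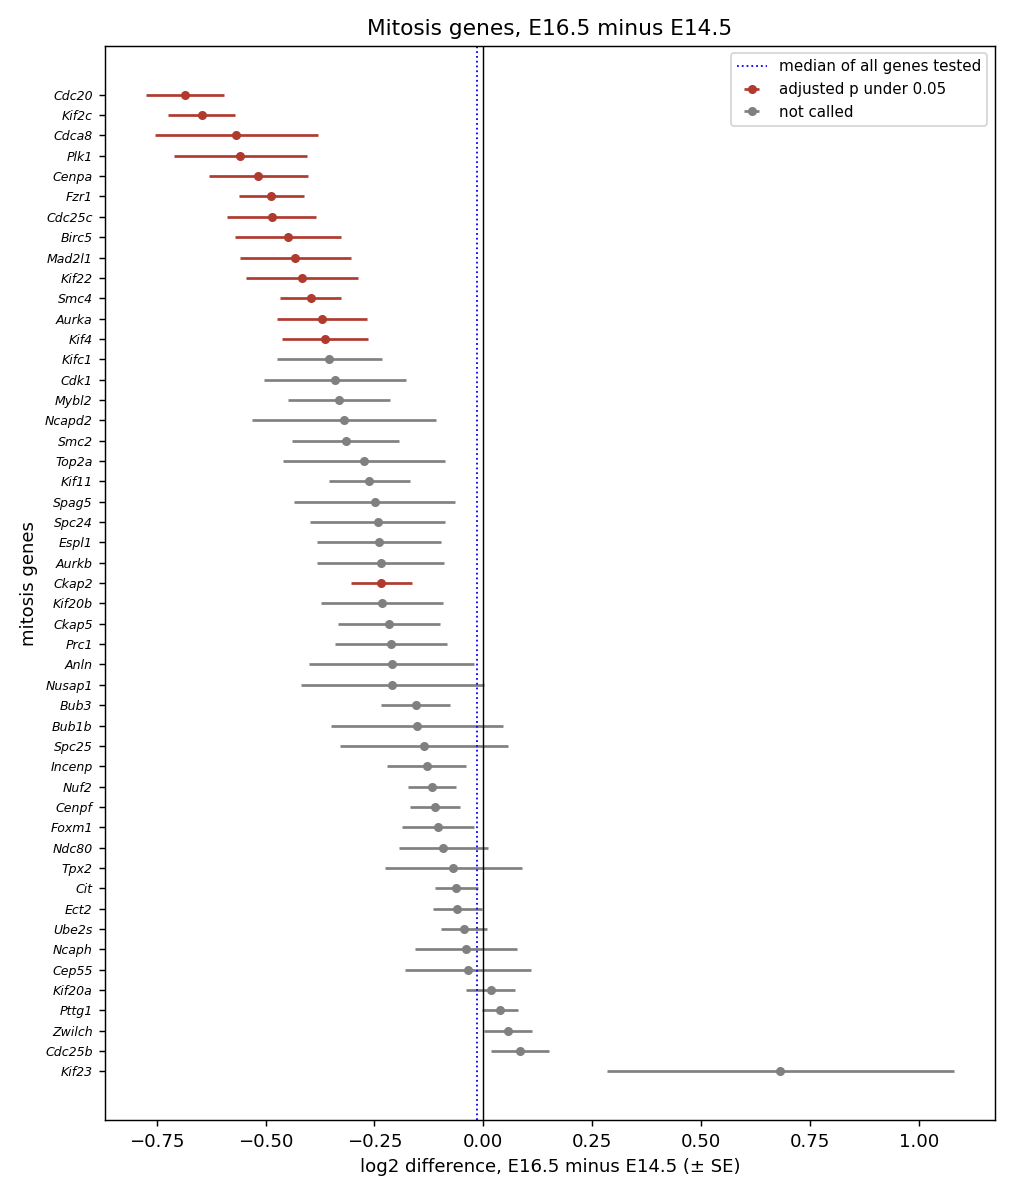
Log2 difference between E16.5 and E14.5 with its standard error (horizontal axis) for the 49 measured mitosis genes (vertical axis). Red points were called at an adjusted p under 0.05, grey points were not, and the dotted line is the median of all genes tested. The called genes lie between -0.68 (Cdc20) and -0.23 (Ckap2), and Kif23, the only gene far above 0, has a standard error of 0.40.

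In the plot of mitosis genes the called and uncalled genes form 1 continuous range. DNA replication genes had similarly small differences, with 42 of 50 measured and a median of -0.16. Of these, 10 were lower (23.8%, against 7.86% of all genes tested) and none higher (against 9.89%). With any 1 of the 6 arrays left out 4 to 8 were lower. Cdc7, the kinase that fires replication origins, had 9.24, 9.10 and 9.06 at E16.5, against 9.70, 9.74 and 9.53 at E14.5, without overlap and with a difference of -0.52 ± 0.08 (SE; adjusted p = 0.00052). Rrm2, the small subunit of ribonucleotide reductase, had 8.41, 8.24 and 8.09 at E16.5, against 8.61, 8.79 and 8.95 at E14.5 and a difference of -0.53 ± 0.12 (SE; adjusted p = 0.0072). Mcm10, a replication initiation factor, had 8.52, 8.46 and 8.24 at E16.5, against 8.89, 8.83 and 8.80 at E14.5 and a difference of -0.43 ± 0.09 (SE; adjusted p = 0.0051), while its other kept probe gave -0.08. In Rrm2 and Mcm10 the stages were apart as well. Blm, a RecQ helicase, differed by -0.55 ± 0.16 (SE; adjusted p = 0.029), and Chaf1b, a histone chaperone of the replication fork, by -0.39 ± 0.10 (SE; adjusted p = 0.018). The call for Blm was lost without E16.5 replicate 2, E16.5 replicate 3, E14.5 replicate 1, E14.5 replicate 2 or E14.5 replicate 3, with adjusted p-values of 0.071 to 0.13. The call for Chaf1b was lost without E16.5 replicate 3, E14.5 replicate 2 or E14.5 replicate 3, with adjusted p-values of 0.062 to 0.095. Pcna, the sliding clamp, had 7.19, 6.81 and 6.84 at E16.5, against 7.18, 6.88 and 6.82 at E14.5, with no difference beyond the spread (-0.01, adjusted p = 0.97). Mcm6 (-0.04) and Tyms (-0.06) did not differ beyond their spread either. Among 21 measured genes of cell cycle entry and exit, 2 were higher and none lower. The higher share of 9.52% was near the 9.89% of all genes tested. Both belong to the 10 measured inhibitors, of which 8 were not called. Cdkn1a, the p21 inhibitor of cyclin-dependent kinases, had 7.82, 8.02 and 7.61 at E16.5, against 7.08, 7.11 and 7.03 at E14.5, and Rb1, the retinoblastoma protein, had 8.51, 8.22 and 8.19 at E16.5, against 8.04, 7.71 and 7.64 at E14.5. They differed by 0.74 ± 0.11 (SE; adjusted p = 0.00038) for Cdkn1a and 0.51 ± 0.12 (SE; adjusted p = 0.011) for Rb1, while the 2 other kept probes of Cdkn1a gave 0.49 and 0.17 and the other kept probe of Rb1 gave 0.21. The call for Rb1 was lost without E14.5 replicate 2 or E14.5 replicate 3, with adjusted p-values of 0.051 to 0.057.

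Many endothelial genes were higher at E16.5, in numbers that depended on single arrays. Of 43 listed 38 were measured, with a median of 0.67. Of these, 22 were higher (57.9%, against 9.89% of all genes tested) and 1 was lower (2.63%, against 7.86%). The higher count was 21 without replicate 1 of E16.5 but 11 to 15 without any 1 of the other 5 arrays. The mean level of the 38 genes was 9.52, 9.73 and 9.75 at E16.5, against 9.00, 8.99 and 9.08 at E14.5, so the stages were apart. Cldn5, the claudin of endothelial tight junctions, had 12.06, 12.28 and 12.29 at E16.5, against 10.58, 10.39 and 10.90 at E14.5, with a difference of 1.58 ± 0.35 (SE; adjusted p = 0.0071). Pecam1, an adhesion molecule of endothelial contacts, had 9.33, 9.58 and 9.33 at E16.5, against 8.28, 8.29 and 8.15 at E14.5, and Cdh5, the cadherin of endothelial junctions, had 10.57, 10.92 and 11.10 at E16.5, against 9.90, 9.84 and 9.95 at E14.5. The groups did not overlap in these genes, and the differences were 1.17 ± 0.25 (SE; adjusted p = 0.005) for Pecam1 and 0.97 ± 0.24 (SE; adjusted p = 0.014) for Cdh5, while the 2 other kept probes of Pecam1 gave 0.31 and 0.93. The call for Cdh5 was lost without E16.5 replicate 3, with an adjusted p of 0.065. The largest difference of the list was in Rbp7, a retinol-binding protein of capillaries, which had 10.71, 11.04 and 10.93 at E16.5, against 8.13, 7.86 and 8.66 at E14.5, a 6.42-fold increase with a difference of 2.68 ± 0.28 (SE; adjusted p = 4.8e-05). Aqp1, a water channel, had 11.95, 12.09 and 12.32 at E16.5, against 10.41, 10.10 and 10.49 at E14.5 (difference 1.79 ± 0.26 (SE; adjusted p = 0.0004)). Gpihbp1, which holds lipoprotein lipase at the capillary wall, had 10.37, 10.87 and 11.02 at E16.5, against 9.22, 9.03 and 9.62 at E14.5 (difference 1.46 ± 0.31 (SE; adjusted p = 0.0055)). None of the 6 endocardial genes was called by limma (1 higher and 1 lower at an unadjusted p under 0.05), and their median was -0.06. The single endothelial gene called lower was Plvap, the diaphragm protein of fenestrated endothelium, at -0.64 (singled out after its value was seen). Cdh5 had changed by 2.77 in the early window, more than in the late window, and the windows differed by -1.81 ± 0.34 (SE; adjusted p = 0.0027).

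Of 31 measured fibroblast and matrix genes 10 were higher (32.3%, against 9.89% of all genes tested) and 3 lower (9.68%, against 7.86%). Their median was 0.31. With any 1 of the 6 arrays left out 6 to 8 were higher and 1 to 3 lower. Of the collagen-binding and elastic fibre genes, 9 of 15 were called higher (median 0.51). Lox, the enzyme that cross-links collagen and elastin, had 10.72, 11.13 and 11.53 at E16.5, against 9.73, 9.93 and 9.63 at E14.5, with a difference of 1.36 ± 0.22 (SE; adjusted p = 0.00086). Eln, elastin, had 9.27, 9.78 and 10.18 at E16.5, against 8.36, 8.23 and 8.75 at E14.5, with a difference of 1.30 ± 0.19 (SE; adjusted p = 0.0005), while its other kept probe gave 0.12. Fmod, a collagen-binding proteoglycan, had 8.00, 8.55 and 8.75 at E16.5, against 7.40, 7.42 and 7.53 at E14.5, and Mfap5, a microfibril protein, had 7.25, 7.51 and 7.68 at E16.5, against 6.77, 6.82 and 6.72 at E14.5. In these 4 genes no E16.5 array overlapped the E14.5 arrays, and replicate 1 was the lowest of the E16.5 arrays. Fmod differed by 0.98 ± 0.19 (SE; adjusted p = 0.003), while the other kept probe of Fmod gave 0.29, and Mfap5 by 0.71 ± 0.11 (SE; adjusted p = 0.00057). All 7 fibrillar collagens had differences above 0 (median 0.67), and 1 of them was called, Col1a2 at 0.87 ± 0.27 (SE; adjusted p = 0.036). The call for Col1a2 was lost without E16.5 replicate 1, E16.5 replicate 2, E14.5 replicate 2 or E14.5 replicate 3, with adjusted p-values of 0.081 to 0.14. Col1a1, at 0.86 (adjusted p = 0.084), and Col3a1, at 0.67 (adjusted p = 0.24), did not pass. Dcn, decorin, was among the brightest genes at both stages, with 13.03, 12.87 and 13.09 at E16.5, against 12.88, 12.56 and 12.64 at E14.5 and an adjusted p of 0.13. Pdgfra, the PDGF receptor of fibroblasts and their precursors, had 10.34, 10.14 and 10.19 at E16.5, against 11.03, 11.06 and 10.59 at E14.5 and fell, with a difference of -0.67 ± 0.16 (SE; adjusted p = 0.011). The call for Pdgfra was lost without E14.5 replicate 2, with an adjusted p of 0.053. It had risen by 0.62 in the early window, and the windows differed by -1.29 ± 0.23 (SE; adjusted p = 0.0016).

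Of 18 measured basement membrane genes 7 were higher (38.9%, against 9.89% of all genes tested) and none was lower (against 7.86%). Their median was 0.43. The higher count was 8 without replicate 1 of E16.5 and 2 to 4 without any 1 of the other 5 arrays. Hspg2, the heparan sulfate proteoglycan perlecan, had 11.12, 11.54 and 11.63 at E16.5, against 10.59, 10.52 and 10.65 at E14.5, with a difference of 0.85 ± 0.23 (SE; adjusted p = 0.019). The call for Hspg2 was lost without E16.5 replicate 2, E16.5 replicate 3, E14.5 replicate 1 or E14.5 replicate 2, with adjusted p-values of 0.052 to 0.083. Col18a1, whose C-terminal fragment is endostatin, had 12.16, 12.41 and 12.36 at E16.5, against 11.65, 11.60 and 11.70 at E14.5, with a difference of 0.66 ± 0.18 (SE; adjusted p = 0.019). The call for Col18a1 was lost without E16.5 replicate 2, E16.5 replicate 3, E14.5 replicate 1 or E14.5 replicate 2, with adjusted p-values of 0.053 to 0.07. Besides, the 2 other kept probes of Col18a1 gave 0.22 and 0.48. Both had groups that did not overlap. Of 14 measured smooth muscle and pericyte genes 2 were higher (14.3%) and 5 lower (35.7%). The lower count was 6 without replicate 1 of E16.5 and 2 to 3 without any 1 of the other 5 arrays. Pdgfrb, the PDGF receptor of mural cells, had 7.0, 6.91 and 6.94 at E16.5, against 7.80, 7.76 and 7.67 at E14.5, near the floor at E16.5, with a difference of -0.79 ± 0.11 (SE; adjusted p = 0.00034). Acta2, the smooth muscle actin that embryonic heart muscle also makes, had 13.02, 11.62 and 11.03 at E16.5, against 13.20, 13.29 and 13.30 at E14.5, with replicate 1 close to E14.5 as in the heart muscle genes, and a difference of -1.38 ± 0.43 (SE; adjusted p = 0.04). The call for Acta2 was lost without E16.5 replicate 2, E16.5 replicate 3, E14.5 replicate 1, E14.5 replicate 2 or E14.5 replicate 3, with adjusted p-values of 0.087 to 0.19. Des, the intermediate filament desmin, had the same arrangement, with 9.93, 8.65 and 8.43 at E16.5, against 10.23, 10.14 and 10.42 at E14.5 and a difference of -1.27 ± 0.40 (SE; adjusted p = 0.043). The call for Des was lost without E16.5 replicate 2, E16.5 replicate 3, E14.5 replicate 1, E14.5 replicate 2 or E14.5 replicate 3, with adjusted p-values of 0.09 to 0.18. Anpep, an aminopeptidase of pericytes, had 7.61, 8.06 and 8.17 at E16.5, against 7.04, 7.05 and 7.10 at E14.5 and a difference of 0.88 ± 0.17 (SE; adjusted p = 0.0028).

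Interferon-response and class I genes were higher in 10 of 18 measured cases (55.6%, against 9.89% of all genes tested) and lower in none (against 7.86%). Their median was 0.57 and all 18 differences were above 0. Gbp2, an interferon-induced GTPase, had 9.28, 9.86 and 10.44 at E16.5, against 7.15, 7.14 and 7.33 at E14.5, a 6.3-fold increase (difference 2.65 ± 0.33 (SE; adjusted p = 0.00016)). Ifitm3, a membrane protein that restricts viral entry, had 10.22, 10.83 and 10.79 at E16.5, against 8.93, 8.88 and 9.06 at E14.5 (difference 1.65 ± 0.21 (SE; adjusted p = 0.00016)). Its relative Ifitm1 had 10.26, 10.56 and 10.54 at E16.5, against 9.03, 8.85 and 9.16 at E14.5 (difference 1.43 ± 0.16 (SE; adjusted p = 6.5e-05)), while the other kept probe of Ifitm1 gave 0.61. The stages were far apart in all of them. Samd9l, an interferon-inducible gene outside the list, had 9.23, 9.58 and 10.11 at E16.5, against 7.33, 7.28 and 7.48 at E14.5 and a difference of 2.28 ± 0.24 (SE; adjusted p = 5.4e-05). Of 7 measured complement genes 5 were higher (71.4%) and 1 lower (14.3%). With 1 of the 6 arrays left out 5 were higher and 0 to 1 lower. C2, a component of the classical pathway, had 9.09, 9.51 and 10.28 at E16.5, against 7.22, 7.22 and 7.51 at E14.5 (difference 2.31 ± 0.32 (SE; adjusted p = 0.00035)), and Serping1, the inhibitor of C1 proteases, had 10.93, 11.40 and 11.90 at E16.5, against 10.15, 10.12 and 10.43 at E14.5 (difference 1.18 ± 0.26 (SE; adjusted p = 0.0074)). In both, replicate 3 was the highest array and no array overlapped E14.5. Leukocyte markers were dim: 7 of 18 were above the floor on enough arrays, and Ptprc, Cd68, Adgre1 and the C1q chains were not measured. Of the 7, 4 were higher (57.1%) and 1 lower (14.3%), or 2 to 3 higher and 0 to 1 lower with 1 of the 6 arrays left out. The mean level of the 7 was 7.17, 7.26 and 7.28 at E16.5, against 7.04, 7.01 and 7.04 at E14.5, and its part in these results was not tested. Laptm5, a lysosomal membrane protein of blood cells, had the largest difference among them, at 0.69 ± 0.19 (SE; adjusted p = 0.024). The call for Laptm5 was lost without E16.5 replicate 2, E16.5 replicate 3, E14.5 replicate 1, E14.5 replicate 2 or E14.5 replicate 3, with adjusted p-values of 0.061 to 0.1.

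Immediate early genes, which cells switch on within minutes of a stimulus, were higher in 6 of 18 cases and lower in none (median 0.67). The higher share was 33.3%, against 9.89% of all genes tested. Klf2, a Krüppel-like factor that endothelium induces under flow, had 10.36, 10.80 and 11.05 at E16.5, against 8.50, 8.48 and 8.59 at E14.5, a difference of 2.21 ± 0.23 (SE; adjusted p = 4.8e-05). Klf4 had 9.06, 9.02 and 8.76 at E16.5, against 7.39, 7.19 and 7.19 at E14.5, and Atf3, a stress-induced factor, had 9.90, 10.10 and 9.52 at E16.5, against 8.16, 8.15 and 8.15 at E14.5. Every E16.5 array was above every E14.5 array, with differences of 1.69 ± 0.15 (SE; adjusted p = 2.7e-05) for Klf4 and 1.69 ± 0.35 (SE; adjusted p = 0.0049) for Atf3. Dusp1, a phosphatase of MAP kinases, differed by 1.18 ± 0.19 (SE; adjusted p = 0.00086). Heat shock genes were higher in 4 of 13 cases (30.8%). Hspa1a, an inducible Hsp70, had 9.90, 9.76 and 9.92 at E16.5, against 7.57, 7.69 and 7.65 at E14.5 and a difference of 2.22 ± 0.45 (SE; adjusted p = 0.0042); its sequence is nearly identical to that of Hspa1b (0.61 ± 0.14 (SE; adjusted p = 0.0083)), so probes may not tell them apart, and its other kept probes gave 0.25 and 0.50. Bag3, a cochaperone, rose by 0.54 ± 0.12 (SE; adjusted p = 0.0059).

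Signalling genes moved one by one. Of 25 measured FGF and IGF genes 6 were higher (24%) and 3 lower (12%), against 9.89% and 7.86% of all genes tested. With 1 of the 6 arrays left out 3 to 5 were higher and 1 to 4 lower. Of the 10 ligands 3 were called higher, Pdgfb at 1.12, Fgf1 at 0.32 and Fgf18 at 0.27, which were added after their values were seen. Pdgfb, a PDGF ligand counted in this list, lost its call when any 1 of the 6 arrays was left out. Its adjusted p was 0.051 without E16.5 replicate 1, and its other kept probe gave 0.19. The other 3 higher genes were IGF-binding proteins. Igfbp6, which prefers IGF2, had 8.66, 9.38 and 9.57 at E16.5, against 6.80, 6.79 and 6.88 at E14.5, at the floor at E14.5, with a difference of 2.38 ± 0.28 (SE; adjusted p = 0.00011). Igfbp7 had 11.46, 11.21 and 11.11 at E16.5, against 9.71, 9.23 and 9.56 at E14.5 and Igfbp3, the main carrier of IGFs in serum, had 10.29, 10.18 and 10.26 at E16.5, against 9.29, 9.30 and 9.23 at E14.5. Neither overlapped between the stages, and the differences were 1.76 ± 0.24 (SE; adjusted p = 0.00028) for Igfbp7 and 0.97 ± 0.25 (SE; adjusted p = 0.017) for Igfbp3. The call for Igfbp3 was lost without E16.5 replicate 3 or E14.5 replicate 3, with adjusted p-values of 0.053 to 0.054. Of 29 TGF-beta and BMP genes 6 were higher (20.7%) and 5 lower (17.2%). With 1 array left out 3 to 6 were higher and 2 to 4 lower. Tgfbr2, the type II TGF-beta receptor, rose by 1.23 ± 0.19 (SE; adjusted p = 0.0008), while its other kept probe gave 0.23. Chrd, the BMP antagonist chordin, had 7.75, 8.23 and 8.23 at E16.5, against 6.94, 6.98 and 6.95 at E14.5 and rose by 1.11 ± 0.14 (SE; adjusted p = 0.00016). Tgfbi, a TGF-beta-induced matrix protein, had 9.57, 9.44 and 9.29 at E16.5, against 10.69, 10.86 and 10.50 at E14.5, lower on every E16.5 array, with a difference of -1.25 ± 0.13 (SE; adjusted p = 6.0e-05). Id2, an inhibitor of bHLH factors that BMP induces, differed by -0.79 ± 0.25 (SE; adjusted p = 0.044). The call for Id2 was lost when any 1 of the 6 arrays was left out, with adjusted p-values of 0.059 to 0.17. Its other kept probes gave -0.36 and -0.03. Of 6 measured transcription factors of the epithelial to mesenchymal transition, Snai2 and Zeb2 were lower and Twist2 was higher. Snai2 had 8.50, 8.28 and 8.41 at E16.5, against 9.21, 9.09 and 8.96 at E14.5 (difference -0.69 ± 0.14 (SE; adjusted p = 0.0044)) and Twist2 had 7.33, 7.78 and 7.75 at E16.5, against 7.07, 7.07 and 7.13 at E14.5 (difference 0.53 ± 0.10 (SE; adjusted p = 0.0022)), both without overlap. Zeb2 differed by -0.84 ± 0.21 (SE; adjusted p = 0.016), while its other kept probe gave -0.09. The call for Zeb2 was lost without E16.5 replicate 2, E16.5 replicate 3 or E14.5 replicate 1, with adjusted p-values of 0.056 to 0.063. Of 10 measured genes of the retinoic acid list 1 was lower (10%, against 7.86% of all genes tested) and none higher. Aldh1a2, which was called higher, is counted with the mesothelial genes and not in this list. The lower gene was Rarb, a retinoic acid receptor that retinoic acid itself induces. It had 7.71, 7.56 and 7.62 at E16.5, against 8.43, 8.53 and 8.18 at E14.5 and a difference of -0.75 ± 0.12 (SE; adjusted p = 0.00085). Of 19 measured junction and polarity genes 3 were higher (1 to 3 with 1 array left out), among them Cldn3 at 0.54 ± 0.13 (SE; adjusted p = 0.0095), and 2 were lower (1 to 2 with 1 array left out), of which Pard6g, a subunit of the Par polarity complex, had 8.09, 8.05 and 7.79 at E16.5, against 8.97, 9.12 and 9.15 at E14.5 and a difference of -1.10 ± 0.11 (SE; adjusted p = 4.8e-05). In the Wnt list 1 of 25 genes was higher and 2 lower, and in the Notch list 2 of 14 were higher and 1 lower. Among 12 Hippo genes none was higher and 2 were lower, and among 23 ribosome genes none was higher and 2 were lower. Developmental timing genes were higher in 2 and lower in 1 of 10 cases, and nonmuscle cytoskeleton genes in 1 and 2 of 20. With 1 of the 6 arrays left out each of these counts was between 0 and 3. Over all genes tested 9.89% were higher and 7.86% lower, against 0 to 20% and 7.14 to 16.7% in these lists. Dlk1, an imprinted transmembrane protein of the developmental timing list, rose by 0.52 ± 0.08 (SE; adjusted p = 0.00072) and Igf2bp3, an oncofetal RNA-binding protein, fell, at -0.76 ± 0.18 (SE; adjusted p = 0.0085), while its 4 other kept probes gave -0.61, -0.12, 0.03 and -0.08.

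Glycolysis genes were lower in 9 of 20 measured cases of the glycolysis and hypoxia list and higher in 4 (median -0.46). The shares were 45% lower and 20% higher, against 7.86% and 9.89% of all genes tested. Pgk1, a glycolytic kinase, had 10.78, 9.82 and 9.69 at E16.5, against 11.21, 10.95 and 10.72 at E14.5, with replicate 1 inside the E14.5 range, and a difference of -0.86 ± 0.26 (SE; adjusted p = 0.035). The call for Pgk1 was lost without E16.5 replicate 2, E16.5 replicate 3, E14.5 replicate 1 or E14.5 replicate 2, with adjusted p-values of 0.089 to 0.16. Without replicate 1 the list had 11 lower and 3 higher. The 4 higher genes include targets of hypoxia signalling: Ndrg1, a stress-responsive gene, had 9.52, 9.85 and 10.16 at E16.5, against 8.43, 8.35 and 8.59 at E14.5 (difference 1.39 ± 0.24 (SE; adjusted p = 0.0015)), Car9, a carbonic anhydrase of the cell surface, had 7.59, 7.80 and 8.33 at E16.5, against 6.93, 6.92 and 7.15 at E14.5 (difference 0.91 ± 0.17 (SE; adjusted p = 0.0022); the 2 other kept probes of Car9 gave 0.25 and 0.05), and Egln3, an oxygen-sensing prolyl hydroxylase, had 9.25, 9.05 and 8.96 at E16.5, against 8.45, 8.08 and 8.27 at E14.5 (difference 0.82 ± 0.16 (SE; adjusted p = 0.0035); the other kept probe of Egln3 gave 0.10). The 4th higher gene was Aldoc (0.23), and the lower genes included the glycolytic enzymes Pfkl, Aldoa, Tpi1, Gapdh, Pgk1 and Ldha.

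Of 11 measured red cell genes 3 were higher (27.3%, against 9.89% of all genes tested) and 1 lower (9.09%, against 7.86%). With 1 of the 6 arrays left out 1 to 3 were higher and 0 to 1 lower. Hbb-y, an embryonic beta-like globin of yolk sac red cells, had 6.73, 6.81 and 6.58 at E16.5, against 8.54, 8.90 and 7.26 at E14.5, above the floor on 1 of 3 E16.5 arrays, and a difference of -1.53 ± 0.45 (SE; adjusted p = 0.029). The call for Hbb-y was lost without E16.5 replicate 1, E16.5 replicate 2, E16.5 replicate 3, E14.5 replicate 1 or E14.5 replicate 2, with adjusted p-values of 0.053 to 0.13. Of 4 measured adult globins 2 were called higher: Hba-a1 had 12.43, 13.27 and 12.59 at E16.5, against 10.97, 11.21 and 11.15 at E14.5 (difference 1.66 ± 0.45 (SE; adjusted p = 0.021)) and Hbb-bt had 12.93, 13.48 and 13.11 at E16.5, against 11.71, 11.73 and 11.86 at E14.5 (difference 1.41 ± 0.41 (SE; adjusted p = 0.029)), both of which have near-identical copies. Hbb-bs, at 1.25 (adjusted p = 0.11), and Hbb-b2, at 0.17 (adjusted p = 0.71), did not pass. The call for Hba-a1 was lost without E16.5 replicate 2, E16.5 replicate 3, E14.5 replicate 1, E14.5 replicate 2 or E14.5 replicate 3, with adjusted p-values of 0.05 to 0.09. The call for Hbb-bt was lost without E16.5 replicate 2, E16.5 replicate 3, E14.5 replicate 1, E14.5 replicate 2 or E14.5 replicate 3, with adjusted p-values of 0.068 to 0.11. Alas2, the erythroid enzyme of heme synthesis, rose by 0.44 ± 0.08 (SE; adjusted p = 0.0017). Of 12 neural crest and Schwann cell markers none was above the floor on enough arrays.

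The largest rise of any gene named by rule was Nupr1, a small stress-induced nuclear protein, with 10.14, 10.80 and 11.09 at E16.5, against 7.69, 7.56 and 7.92 at E14.5 and a difference of 2.96 ± 0.27 (SE; adjusted p = 2.7e-05), a 7.75-fold increase. All 3 E16.5 arrays were at least 2 log2 units above the E14.5 arrays. Wdr92, a WD-repeat protein, followed at 2.74 ± 0.25 (SE; adjusted p = 2.7e-05), but its other kept probe gave -0.05. Clic3, a chloride channel family protein, had 8.76, 9.24 and 9.64 at E16.5, against 6.77, 6.67 and 6.83 at E14.5 and was above the floor on 1 of 3 E14.5 arrays, with a difference of 2.46 ± 0.22 (SE; adjusted p = 2.7e-05). Tpbgl had 9.72, 9.96 and 10.59 at E16.5, against 7.93, 7.67 and 8.10 at E14.5, with a difference of 2.19 ± 0.27 (SE; adjusted p = 0.00016). Myo5b, a motor of recycling endosomes in epithelia, differed by 2.38 ± 0.28 (SE; adjusted p = 0.0001), while its 2 other kept probes gave 0.19 and 0.43. Among the falls, Ccdc3, a secreted coiled-coil protein, had 8.41, 8.28 and 8.15 at E16.5, against 10.58, 10.55 and 10.37 at E14.5, a 4.66-fold decrease with a difference of -2.22 ± 0.21 (SE; adjusted p = 2.7e-05). Reln, the extracellular protein reelin, had 7.20, 7.36 and 7.72 at E16.5, against 8.77, 8.92 and 8.62 at E14.5, and Ddx25, a DEAD-box helicase best known from the testis, had 7.64, 7.68 and 7.92 at E16.5, against 9.12, 9.20 and 8.87 at E14.5. In these 3 genes replicate 1 of E16.5 was level with the other E16.5 arrays, and Reln differed by -1.34 ± 0.17 (SE; adjusted p = 0.00017) and Ddx25 by -1.32 ± 0.18 (SE; adjusted p = 0.00029). Slitrk5, a synaptic adhesion protein, had 7.39, 6.93 and 6.85 at E16.5, against 8.39, 8.37 and 8.47 at E14.5 (difference -1.35 ± 0.27 (SE; adjusted p = 0.0038)). Lbh, a transcriptional regulator of limb and heart, had 10.73, 9.80 and 9.86 at E16.5, against 11.55, 11.52 and 11.54 at E14.5, Vldlr, a lipoprotein and reelin receptor, had 9.15, 7.99 and 8.08 at E16.5, against 9.71, 9.67 and 9.77 at E14.5, and Homer2, a scaffold protein, had 8.76, 7.80 and 7.61 at E16.5, against 9.53, 9.54 and 9.78 at E14.5. In these last 3 genes replicate 1 was the highest E16.5 array by more than 0.8 log2 units, and they differed by -1.41 ± 0.32 (SE; adjusted p = 0.008), -1.31 ± 0.31 (SE; adjusted p = 0.011) and -1.56 ± 0.37 (SE; adjusted p = 0.011). The call for Vldlr was lost without E16.5 replicate 2 or E16.5 replicate 3, with adjusted p-values of 0.054 to 0.055. The call for Homer2 was lost without E16.5 replicate 3, with an adjusted p of 0.056.

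**Figure D5:**
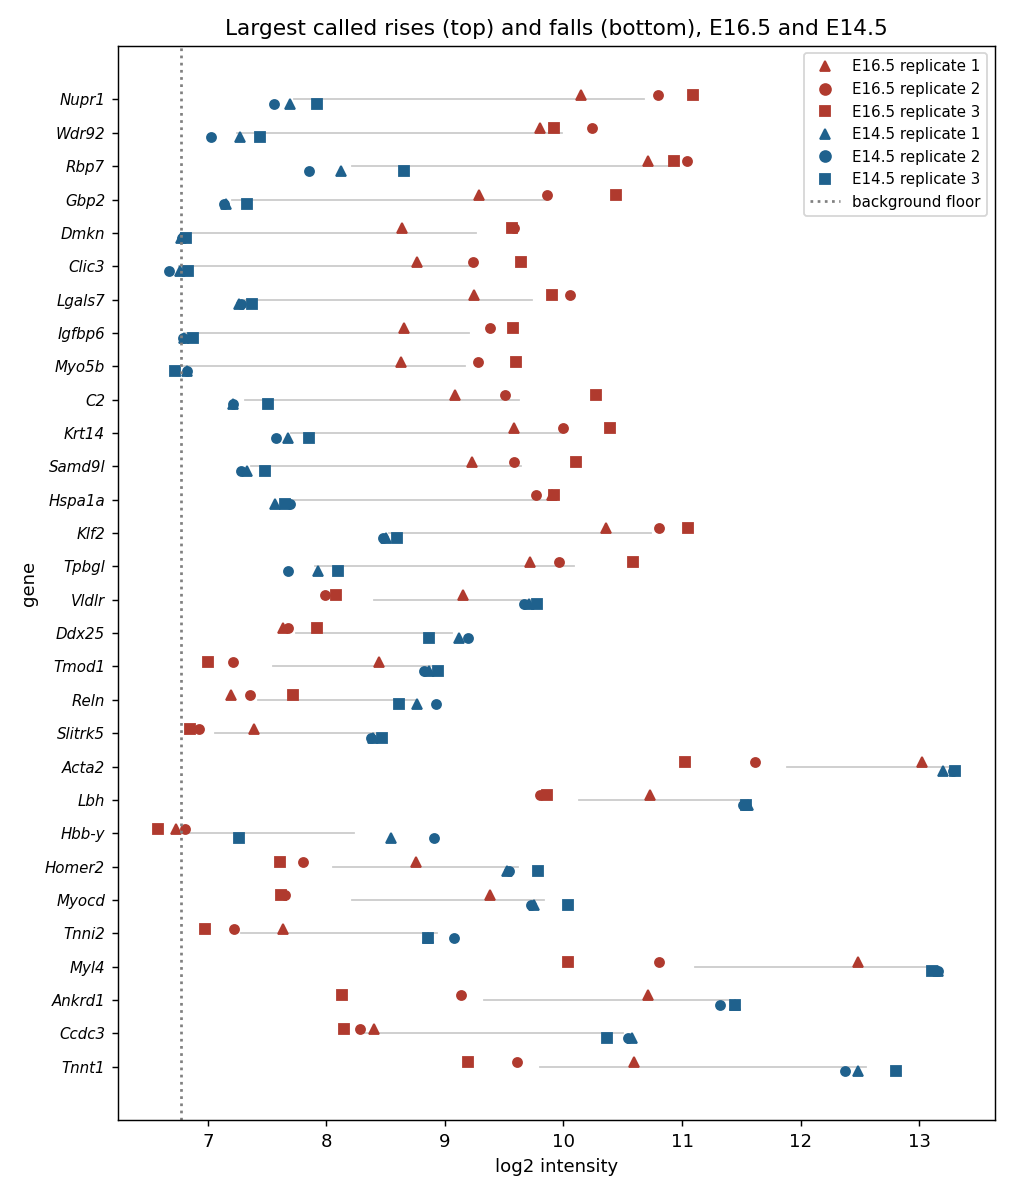
Log2 intensity (horizontal axis) on each E16.5 array (red) and E14.5 array (blue) for the 15 largest called rises and the 15 largest called falls (vertical axis). Triangles are replicate 1, circles replicate 2 and squares replicate 3; grey lines join the stage means and the dotted line is the background floor. The E16.5 arrays lie to the right of the E14.5 arrays for all rises, and for falls such as Acta2, Myl4 and Ankrd1 the red triangle stands close to the blue points.

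The plot of the largest changes shows all 15 rises and 15 falls without overlap between the stages, which the rule that named them required.

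By day, more genes were called in the first than in the second. In the first day, E15.5 minus E14.5, 162 genes were higher (1.50%) and 113 lower (1.05%), and in the second, E16.5 minus E15.5, 33 were higher (0.305%) and 15 lower (0.139%). Leaving out 1 E14.5 array gave 13 to 76 higher and 4 to 37 lower in the first step, with the fewest without replicate 2. In the second step there were 109 higher and 21 lower without E16.5 replicate 1, 4 to 8 higher and 4 to 6 lower without replicate 2 or 3, and 15 and 16 higher without replicate 1 and 2 of E14.5, which share the estimate of spread. Both steps share the E15.5 arrays, so their values are given side by side only. Nupr1 changed by 1.94 in the first step and 1.01 in the second, Krt8 by 0.66 and 1.46, and Ccdc3 by -1.29 and -0.93. The keratins had a median of 0.50 in the first step and 1.10 in the second, while endothelial genes had 0.37 and 0.20. Heart muscle genes had -0.74 and -0.08, glycolysis and hypoxia genes -0.42 and -0.05, fibroblast and matrix genes 0.27 and 0.06, and mitosis genes -0.11 and -0.09. Whether the steps differ was not tested. Without replicate 1 of E15.5 and of E16.5 the first step had 836 genes higher and 679 lower, and the second 36 higher and 9 lower. Without replicate 1 of E13.5, which enters these steps through the estimate of spread, the first had 303 higher and 245 lower and the second 34 higher and 23 lower.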

How the data were processed

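Biotinylated cRNA was hybridised to Illumina bead arrays, per the labels' protocols, and GenomeStudio 2011.1 is named in the submitters' processing notes. The authors' deposited intensities are linear; sorted columns differed by at most 2.04 units, as after quantile normalization. How, and whether background was subtracted, is not given in the sources used here. A second table was not used, because its 36 value columns match no label. Of 45281 probes, 34885 had 1 gene symbol (platform annotation) and 19967 passed the floor on 3 or more arrays. The floor is the 0.01 tail of a normal background fitted to the lower side of the mode at 99.2. A gene was represented by its brightest kept probe (4166 had several).

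Log2 intensities of all 18 arrays were fitted with limma 3.58.1 in R 4.3.3 (1 mean per stage, 12 residual degrees of freedom, eBayes, Benjamini-Hochberg over 10813 genes), after a check on simulated data; promoters and figures used Python 3.11.15 with pandas 2.3.3, numpy 2.4.6 and matplotlib 3.10.9, and labels were read with jsonlite 2.0.0. The comparisons were E16.5 minus E14.5, its 2 daily steps, and the late minus the early window. Gene lists were described by counts and medians with no set test; the members and lists were chosen with earlier results of these data known. Named genes were the 15 largest rises and falls (called, at least 2-fold, stages not overlapping, higher stage above the floor on all 3 arrays), key genes of the lists, and up to 6 called members of the main lists and 4 of others. Of 156 such genes, 133 were called; 59 of these had other kept probes, 3 with an opposite sign and 28 with a probe under 50 percent of the change. For a probe not above the floor on any array of a stage, "at least" compares the other stage with the floor. Alternatives were cyclic loess, normexp with offsets of 16 and 50, no filter or a stricter floor, and mean of probes. Others were only the 6 arrays, replicate block, array weights and an intensity trend. Further fits left out each of the 6 E16.5 and E14.5 arrays in turn, or both replicate 1 arrays (E15.5 and E16.5). Another left out E13.5 replicate 1 (added after seeing the data). No E15.5 array was left out alone. Wt1 and a few other genes are not reported here.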

Additional observations from a re-analysis of the deposited data

Results flagged for a closer look

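For 14 genes named above, the change between E16.5 and E14.5 differed from the change between E13.5 and E11.5 in the limma test of that difference (adjusted p under 0.05). Msln, Cldn15, Myl4, Plk1, Mcm2, Rrm2, Pecam1, Cldn5, Lum and Eln were also looked at and did not pass. Only key genes called in the late window were looked at, so their share is not comparable with the 13.0% of all genes tested. The mesothelial genes had the late change above the early one, by 2.06 for Krt7, 3.72 for Krt8, 3.13 for Krt18, 2.10 for Krt19, 2.91 for Upk1b, 1.85 for Upk3b, 1.61 for Lrrn4, 2.66 for Dmkn and 1.03 for Aldh1a2 on the log2 scale. In Krt8 the late change was 2.12 and the early change -1.60, and in Dmkn they were 2.47 and -0.19. The mitosis genes had the late change below the early one, by -0.494 for Aurka, -0.670 for Cdc20 and -0.629 for Birc5. In Cdc20 the late change was -0.68 and the early change -0.02. Cdh5, of endothelial junctions, differed by -1.81, with a late change of 0.97 and an early change of 2.77, so that it rose in both windows and by more in the early one. Pdgfra differed by -1.29, with a late change of -0.67 and an early change of 0.62. All 14 kept an adjusted p under 0.05 without replicate 1 of E13.5, an array of the early window that stood apart.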

How the results depend on the processing

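Each array group holds 3 arrays, and background left in the intensities compresses the differences of dim genes. No difference of the called named genes changed sign under any alternative, and of the uncalled named genes 4 did (Bub1b, Mcm6, Pcna and Tyms). Of 133 called named genes 84 kept their call in all 18 alternatives and 49 lost it in at least 1, while 17 of 23 uncalled ones were called in at least 1. Limma's array weights gave 1855 higher and 1913 lower genes for E16.5 minus E14.5, 83 of them at least 2-fold lower, 1567 higher and 1449 lower for E15.5 minus E14.5, 418 and 273 for E16.5 minus E15.5, and 1630 and 1775 for late minus early; they called 30 heart muscle genes lower, 24 mitosis genes lower and 1 higher, and 17 DNA replication genes lower and 2 higher. With both replicate 1 arrays aside, E15.5 minus E14.5 had 836 higher and 679 lower, E16.5 minus E15.5 had 9 lower, 104 genes were at least 2-fold lower between E16.5 and E14.5, and 38 heart muscle genes were lower. Normexp with offset 16 gave 335 genes at least 2-fold higher and 106 lower. Without a filter E15.5 minus E14.5 had 103 higher and 74 lower, and 1 heart muscle gene was lower. The intensity trend gave 50 higher for E16.5 minus E15.5, 4 heart muscle genes lower and 6 DNA replication genes lower. Cyclic loess gave 9 mitosis genes lower, and 6 DNA replication genes lower and 1 higher. Only the 6 arrays gave 5 heart muscle genes lower and 1 mitosis gene higher. With the replicate number as a block, 1230 genes were higher and 998 lower between E16.5 and E14.5. In that fit E15.5 minus E14.5 had 272 higher and 179 lower, E16.5 minus E15.5 had 24 lower and 7 heart muscle genes were lower. Same-numbered E16.5 and E14.5 arrays correlated at 0.34, 0.26 and 0.056 in their deviations from the stage means. E16.5 replicates 1 and 2 correlated best with their own number, and E16.5 replicate 3 with E14.5 replicate 2 (0.12). Deviations of 3 arrays from their mean depend on each other, so these values cannot decide whether the numbers pair the arrays. Leaving out 1 of the 6 arrays gave 630 to 1148 higher and 417 to 829 lower genes, 113 to 192 at least 2-fold higher and 25 to 93 lower, 13 to 216 higher and 4 to 132 lower for E15.5 minus E14.5, 4 to 109 higher and 4 to 21 lower for E16.5 minus E15.5, and 568 to 859 higher and 481 to 731 lower for late minus early. It gave 14 to 17 mesothelial genes higher and 2 to 3 lower, 0 to 19 heart muscle, 6 to 17 mitosis and 4 to 8 DNA replication genes lower. Without E13.5 replicate 1, added after seeing the data, there were 1287 higher and 1236 lower genes, 303 and 245 for E15.5 minus E14.5, 34 and 23 for E16.5 minus E15.5, and 1174 and 1229 for late minus early, with 18 mesothelial genes higher and 4 lower, 17 mitosis genes lower and 1 higher, and 15 DNA replication genes lower. Without E16.5 replicate 1 the heart muscle count was 19; the cause of the other shifts was not tested.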
